A study of Drosophila melanogaster with 2 samples.

Results

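Translation initiation and elongation factor genes were taken as the protein-coding genes of the Ensembl BDGP6 annotation whose symbol starts with eIF or eEF, which gave 52 of 13945 protein-coding genes on the 6 chromosome arms covered by the peak lists. By symbol, 44 encode initiation factors and 8 elongation factors. From background knowledge, 9 of the initiation factor genes (eIF4E3, eIF4E4, eIF4E5, eIF4E6, eIF4E7, eIF4G2, eIF3d2, eIF3f2 and eIF3g2) were counted as germline paralogues, most of them known from the testis, and the other 43 genes as general factors. The measurements are chromatin immunoprecipitation and sequencing peaks of GATAd, a GATA family transcription factor, in Drosophila melanogaster. All larvae were whole animals at the third instar, in its wandering phase, with males and females pooled. They came from a transgenic line, GATAd-GFP, that stably makes GATAd joined to a C-terminal GFP (eGFP in the description), and the tag was precipitated with an anti-GFP antibody, although the antibody field reads GATAd. The single group, GATAd-GFP larvae, holds biological replicates 2 and 3, and no other genotype or control group is compared. The labels do not name the promoter of the transgene and give the age as unknown. Control libraries were not analysed here. Peaks from whole animals do not tell which cell types were bound.

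Initiation factors bring the initiator tRNA, the small ribosomal subunit and the capped mRNA together and place the ribosome at a start codon. Elongation factors then deliver aminoacyl-tRNAs and move the ribosome along the message. GATA factors bind DNA at the word WGATAR (W is A or T, R is A or G). Genes of the translation machinery are active in nearly all cells, and many fly housekeeping promoters hold the DNA replication-related element (DRE), TATCGATA, which the factor DREF binds.

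The peaks are those of the authors' dm6 lists: 30000 candidates in each replicate, 30000 from both replicates pooled, and 1205 that passed the irreproducible discovery rate (IDR) threshold, which ranks agreement between replicates. The 1205 IDR peaks are the 1205 strongest pooled candidates, so membership here equals a cut on pooled signal at 43.9. An IDR peak need not be strong in both replicates. The candidate lists include background by design. Values are the authors' signal per peak, whose scale is not stated, and run from 43.9 to 547 in the IDR list, from 13.4 to 547 in the pooled list, from 9.56 to 342 in replicate 2 and from 6.42 to 219 in replicate 3. Because scales may differ between lists, the rank within the list stands beside the signal. The read depth is unknown, and each peak has 1 value per list, so no SD is given. A gene was counted as near a peak when the summit lay within 1 kb of a transcription start site (TSS) of the gene.

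IDR peaks were near translation factor genes about as often as near other genes. Of the 52 genes, 5 had an IDR summit that close to a TSS (9.62%), where 8.78% of all protein-coding genes did. These were eIF2Bbeta, eIF6, eIF4EHP and eIF2A among the initiation factors and eEF1gamma among the elongation factors. When each peak was given only to the gene of its nearest TSS, 3 remained (5.77%, against 5.73% of all genes): eIF6, eIF2A and eEF1gamma. Near eIF2Bbeta and eIF4EHP the summit lay closer to the TSS of a divergent neighbour. Just outside the distance limit, IDR summits lay 1239 bp from eIF3d1 (signal 46.2) and 1330 bp from eIF3g1 (73.4), and the nearest inside it lay 673 bp from eIF2Bbeta.

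**Figure D1:**
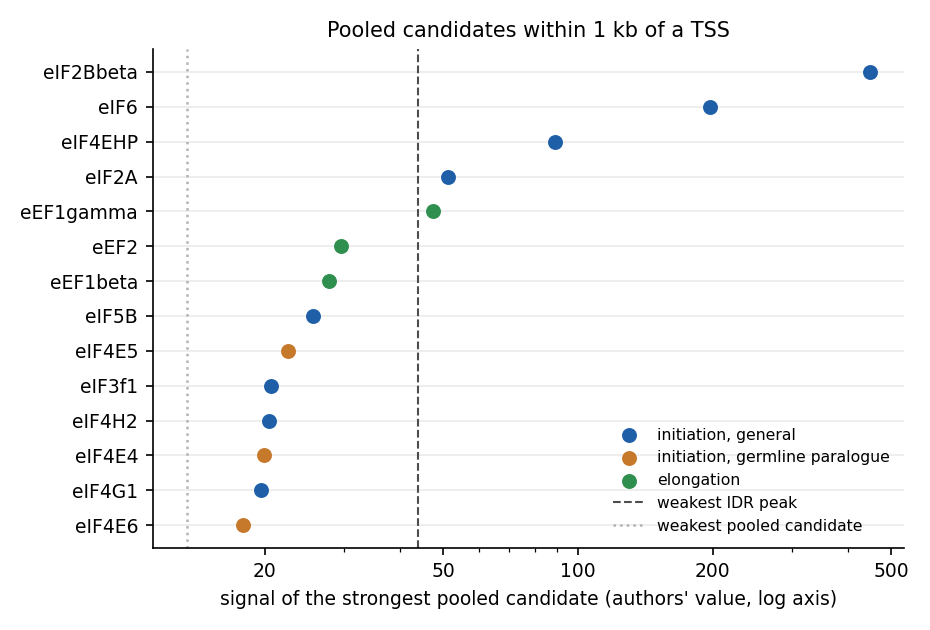
Signal of the strongest pooled candidate within 1 kb of a TSS for the 14 members that had one, on a log axis, coloured by class. Points right of the dashed line at 43.9 are IDR peaks: 4 initiation factor genes and eEF1gamma, with eIF2Bbeta highest at 448, while the 3 germline paralogues lie between 17.9 and 22.6.

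The strongest peak lay upstream of eIF2Bbeta, which encodes a subunit of eIF2B, the exchange factor that reloads eIF2 with GTP. It spanned chrX:2703751-2704043 with a signal of 448 in the pooled data (rank 3), 274 in replicate 2 (rank 3) and 189 in replicate 3 (rank 4), so both replicates placed it at the top. Its summit lay in intergenic sequence 673 bp upstream of the eIF2Bbeta TSS and 46 bp from the TSS of Ugalt, a UDP-galactose transporter gene transcribed the other way. The TSSs of the 2 genes are 719 bp apart. A separate pooled candidate 61 bp upstream of the eIF2Bbeta TSS had a signal of 15.2 (rank 21922), and neither replicate had a candidate there. The window of 100 bp on each side of the strong summit held neither WGATAR nor DRE, while that of the weak one held a TGATAA and a DRE. Both windows are shown because they contrast the sequence at the strong summit with that at the start of the gene. They are the plus strand of the RefSeq Release 6 genome, to which dm6 corresponds, with WGATAR and DRE matches in capitals, at chrX:2703798-2703998 and chrX:2704410-2704610.
eIF2Bbeta, strong summit: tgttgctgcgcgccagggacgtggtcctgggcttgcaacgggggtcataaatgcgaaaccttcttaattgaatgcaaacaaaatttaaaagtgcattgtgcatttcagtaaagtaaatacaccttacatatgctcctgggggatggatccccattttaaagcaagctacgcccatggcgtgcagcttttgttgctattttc
eIF2Bbeta, weak summit: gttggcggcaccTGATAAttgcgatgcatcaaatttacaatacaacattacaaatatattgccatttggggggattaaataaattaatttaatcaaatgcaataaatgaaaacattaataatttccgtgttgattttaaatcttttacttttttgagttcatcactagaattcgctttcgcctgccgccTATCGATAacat

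eIF4EHP encodes a cap-binding protein that competes with eIF4E and represses translation of mRNAs such as caudal in the embryo. The peak at chr3R:24109054-24109437 had a signal of 88.9 in the pooled data (rank 297) and 63.5 in replicate 3 (rank 128), and replicate 2 had no candidate within 1 kb, its nearest summit being 7329 bp away. It is thus an IDR peak seen in 1 of the 2 replicate lists. Of all 1205 IDR peaks, 29 (2.41%) overlapped no candidate of replicate 2. The summit lay in intergenic sequence, 286 bp upstream of eIF4EHP and 90 bp upstream of the divergent gene CG18428. Its window, chr3R:24109146-24109346 on the plus strand, was rich in A and T and held no WGATAR or DRE.
eIF4EHP: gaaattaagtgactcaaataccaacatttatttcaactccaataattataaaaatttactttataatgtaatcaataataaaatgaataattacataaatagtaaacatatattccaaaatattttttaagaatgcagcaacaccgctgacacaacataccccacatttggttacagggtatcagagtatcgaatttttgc

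eIF2A encodes a factor that can bring initiator tRNA to the ribosome apart from eIF2, and eEF1gamma encodes a subunit of the complex that recharges eEF1alpha with GTP. The eIF2A peak (chr3L:21824700-21825083, signal 51.2, rank 933) had its summit in the 5' UTR of 1 transcript, 73 bp upstream of the TSS of another. Replicate 2 had 28.9 there (rank 915), and replicate 3 had 2 adjacent candidates of 24.2 and 23.2 (ranks 1242 and 1324), just below the 24.6 that its 1205th peak reached. The eEF1gamma peak (chr3R:29219931-29220314, signal 47.6, rank 1045) lay in intergenic sequence 49 bp upstream of the TSS. Replicate 3 had 31.0 (rank 748) and replicate 2 had 20.4 (rank 2274), and the nearest replicate summits were 91 bp apart. No other gene had a TSS within 1 kb of either summit. Both windows held a DRE, centred 12 bp from the eIF2A summit and 12 bp from the eEF1gamma summit, and that of eEF1gamma also held a TGATAA near its left edge. The windows, at chr3L:21824792-21824992 and chr3R:29220023-29220223, are shown on the plus strand, which is the coding strand of both genes, with these words in capitals.
eIF2A: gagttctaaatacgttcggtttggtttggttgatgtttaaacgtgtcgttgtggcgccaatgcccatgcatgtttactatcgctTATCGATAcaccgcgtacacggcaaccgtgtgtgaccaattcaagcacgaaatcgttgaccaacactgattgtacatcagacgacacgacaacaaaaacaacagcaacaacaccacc
eEF1gamma: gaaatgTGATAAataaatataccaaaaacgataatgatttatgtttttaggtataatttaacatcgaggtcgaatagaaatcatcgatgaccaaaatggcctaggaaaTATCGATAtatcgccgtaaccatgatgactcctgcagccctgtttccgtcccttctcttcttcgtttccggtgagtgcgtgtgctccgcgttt

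Some weaker or single-replicate summits also lay at a DRE, and eIF3f1 and eIF1 are examples. Of the strongest pooled candidates of the 14 members with one, 4 held DRE in the window (28.6%). Over all genes the share was 3.77%. Among these 4, eIF3f1 alone was not at an IDR peak. The peaks of eIF3c, eIF3h, eIF2beta and eEF2 in the top of 1 replicate held no DRE. eIF3f1, a subunit of eIF3, the scaffold that holds the preinitiation complex, had a pooled candidate of 20.7 (rank 8000) 2 bp downstream of its TSS, with 15.5 in replicate 2 (rank 6531) and 10.7 in replicate 3 (rank 8705). The initiation factor eIF1 guards start codon choice. In replicate 3 its gene had a candidate of 41.0 (rank 393), 308 bp upstream of its TSS and 73 bp upstream of the divergent ribosomal protein gene RpL28, with no overlapping candidate in replicate 2 or in the pool. The windows at chr3R:4714080-4714280 and chr3L:3222933-3223133 follow, on the plus strand with DRE and WGATAR in capitals, to set beside those of the IDR peaks.
eIF3f1: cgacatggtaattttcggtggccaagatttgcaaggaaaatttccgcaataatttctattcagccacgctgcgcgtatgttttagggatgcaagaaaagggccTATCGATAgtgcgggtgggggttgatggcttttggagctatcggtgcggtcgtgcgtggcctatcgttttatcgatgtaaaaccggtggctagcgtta
eIF1: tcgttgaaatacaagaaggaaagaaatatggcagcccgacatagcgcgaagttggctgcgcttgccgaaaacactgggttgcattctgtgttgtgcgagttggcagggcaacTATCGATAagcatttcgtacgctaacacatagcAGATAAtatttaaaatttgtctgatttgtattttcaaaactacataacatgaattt

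The summit window of the eIF6 IDR peak also held a DRE, centred 84 bp from the summit. That DRE was 7 bp upstream of the TSS, outside the peak interval given below. eIF6 keeps the large ribosomal subunit from joining the small one too early and is needed to build it. The peak spanned chr2R:23850326-23850491 with a signal of 197 in the pool (rank 42), 124 in replicate 2 (rank 32) and 85.4 in replicate 3 (rank 58). Its summit lay 92 bp upstream of the eIF6 TSS, in an intron of ytr, the gene on the same strand within whose span eIF6 lies, and 680 bp from the ytr TSS. With eIF2Bbeta, eIF6 was 1 of 2 members near a peak among the 1205 strongest of both replicates (3.85%), where 5.40% of all genes were.

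**Figure D2:**
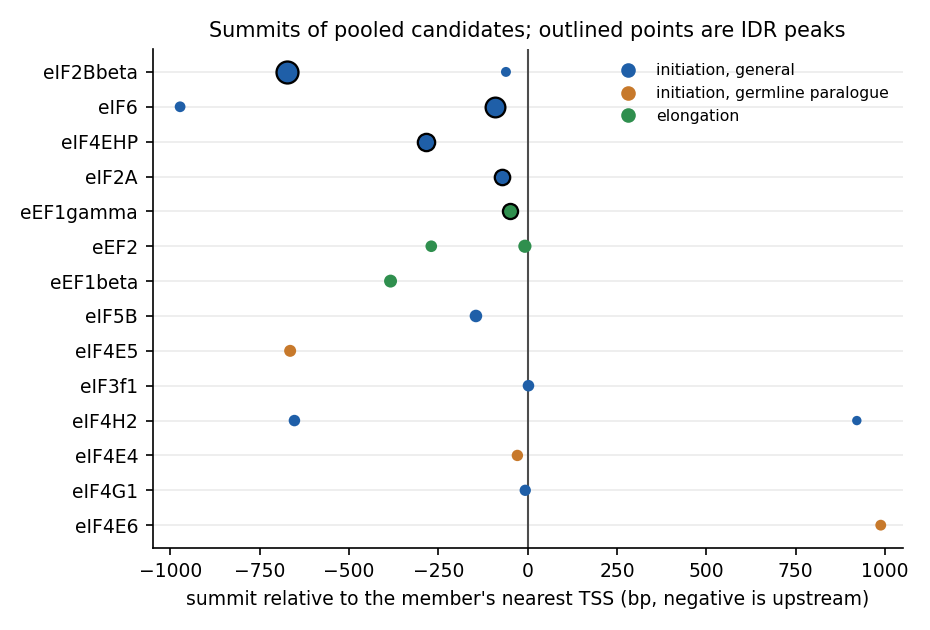
Position of every pooled candidate summit within 1 kb of a TSS of the 14 members with one, in bp relative to the member's nearest TSS, with larger points for higher signal and outlines for IDR peaks. All 5 IDR summits lie upstream, from 49 bp at eEF1gamma to 673 bp at eIF2Bbeta.

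The IDR summits of the 5 members were upstream of the member's nearest TSS in each case. That of eIF2A was at the same time downstream of the gene's other TSS, in the 5' UTR. Over all 841 IDR peaks within 1 kb of a TSS, 80.0% of summits were upstream of the nearest TSS, and 50.2% had a TSS of a further gene within 1 kb, as 3 of these 5 did. Translation factor genes often have close neighbours, since 28 of 52 (53.8%) had a TSS of another protein-coding gene within 1 kb, against 42.9% of all genes. Some share the TSS itself: eIF2gamma with Su(var)3-9, eIF4G2 with CG33111 and eIF5 with CG46312. A candidate at such a start cannot be given to either gene alone.

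DRE was within 100 bp of the summit at 3 of the 5 IDR peaks of members (eIF6, eIF2A and eEF1gamma). They were the same 3 at which the member was the nearest gene. Within 50 bp DRE was at 2 of the 5, eIF6 no longer among them. The share with DRE within 100 bp was 8.09% of the 841 promoter IDR peaks and 5.81% of all 1205. WGATAR was at 1 of the 5, eEF1gamma, against 40.9% of the promoter IDR peaks. The words were searched on both strands. DRE reads TATCGATA on each, and WGATAR is AGATAA or AGATAG and, with T in place of the leading A, TGATAA or TGATAG. In DRE the core GATA follows a C, so DRE itself is not a WGATAR match. The median GC content of the 5 windows was 43.8%, against 35.8% at all promoter IDR peaks. The 5 ranged from 26.4% at eIF4EHP to 45.8% at eIF2A.

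DRE was also frequent in the promoters of translation factor genes with no IDR peak. In the 300 bases starting 250 bp before the TSS shared by most transcripts of a gene, 14 of 52 members held DRE (26.9%), against 9.23% of all genes, while WGATAR was in 24 of 52 (46.2%) and 46.7%. The 14 genes held 16 DRE words, of which 14 were centred within 100 bp of the TSS and 15 upstream of it. They included eIF4A, the helicase that unwinds mRNA leaders, eIF2alpha, the subunit through which stress kinases act on initiation, and eIF2gamma, with 3 DRE words. None of these 3 genes had a pooled candidate within 1 kb. In replicate 3 alone, eIF4A had candidates of 13.4 (rank 4665) and 11.1 (rank 7701), with a DRE 31 and 6 bp from the summit. eIF2alpha had one of 6.74 there (rank 27317), with no DRE in its window. Of the 14 members with DRE in the promoter 3 had an IDR summit (21.4%) and of the other 38 members 2 did (5.26%). The 3 were eIF2Bbeta, eIF6 and eEF1gamma, and the DRE at the eIF2A peak lay outside the promoter window of that gene. The same shares over all genes were 12.7% with DRE and 8.38% without. These are few genes, and the difference was not tested.

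**Figure D3:**
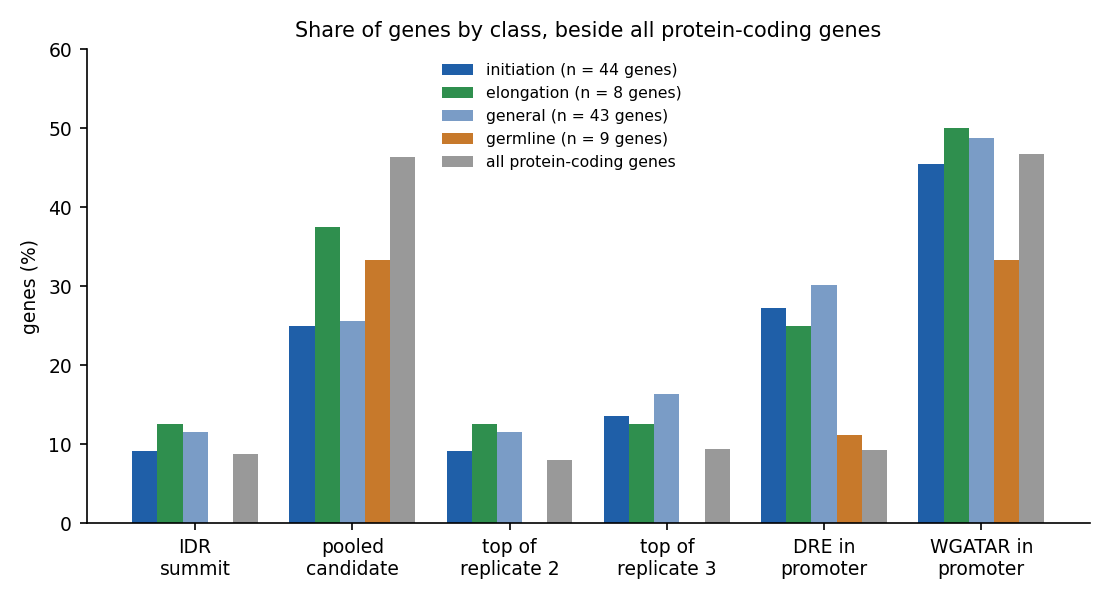
Share of genes, in percent, with an IDR summit, a pooled candidate or one of the 1205 strongest peaks of each replicate within 1 kb of a TSS, and with DRE or WGATAR in the promoter, for each class and for all protein-coding genes (grey). Classes overlap, since the 43 general factors include the 8 elongation factors. Germline paralogues have no bar for the IDR list or for the top of either replicate.

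Initiation and elongation factor genes had IDR summits at similar shares. Of 44 initiation factor genes 4 had one (9.09%), and of 8 elongation factor genes 1 did (12.5%). Genes of 1 set of larvae are not replicates, so this difference has no test, and a single elongation factor gene sets its share. The order depended on the setting. In the top of replicate 3, taken by itself, 6 of 44 initiation factor genes (13.6%) and 1 of 8 elongation factor genes (12.5%) had a peak, and in the top of both replicates 2 of 44 (4.55%) and 0 of 8 did. Initiation minus elongation was also above 0 for IDR summits within 5 kb (5.68 percentage points) and for the 602 strongest IDR peaks (6.82). In signal, the strongest pooled candidate had a median of 22.6 over the 11 initiation factor genes with one and 29.6 over the 3 elongation factor genes, against 21.5 over all genes with one. Initiation factor genes spanned 17.9 to 448 and elongation factor genes 27.9 to 47.6, so the narrower range lies inside the wider. The order of the medians was the same in replicate 2 (13.7 for initiation and 16.6 for elongation) and turned in replicate 3 (11.8 and 10.4).

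By complex, the counts of initiation factor genes are small and were not tested against each other. Beside them stand the shares of all genes, 8.78% with an IDR summit, 46.4% with a pooled candidate and 29.6% with no candidate in any list. The 16 eIF3 genes had no IDR summit, and eIF3f1 alone had a pooled candidate, while 8 of the 16 had no candidate in any list. The 13 eIF4 genes, for cap binding, the scaffold and the helicase with its helpers, had 1 IDR summit (eIF4EHP) and 6 genes with a pooled candidate. Of the 5 eIF2B genes eIF2Bbeta had the only pooled candidates, and of the 3 genes for eIF2, which carries the initiator tRNA, none had one. eIF5B, the GTPase that joins the subunits, had a pooled candidate of 25.6 (rank 3935) 145 bp upstream of its TSS in the 5' UTR of another transcript, with 7.18 in replicate 3 (rank 23945) and none in replicate 2. eIF4H2, a helicase helper gene, had a pooled candidate of 20.4 (rank 8507) 653 bp upstream and 13.7 in replicate 2 (rank 10347).

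The elongation factor genes other than eEF1gamma had weaker candidates or none. eEF2, the translocation factor, had a pooled candidate of 29.6 (rank 2631) 8 bp upstream of its TSS, with 26.9 in replicate 2 at the same summit (rank 1100). Replicate 3 had 10.1 (rank 10326) at a summit 295 bp away, so eEF2 was in the top of replicate 2 only. eEF1beta, a further subunit of the eEF1 exchange complex, had 27.9 in the pool (rank 3102) and 17.8 in replicate 3 (rank 2340), with no candidate in replicate 2, and the pooled summit lay nearer to Psi (124 bp) than to eEF1beta (384 bp).

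The genes for eEF1alpha, which delivers aminoacyl-tRNA and is among the most abundant proteins of a cell, were not near any pooled candidate. eEF1alpha1 had a candidate of 10.4 in replicate 3 (rank 9425) and eEF1alpha2 one of 12.9 in replicate 2 (rank 12857). eEF1delta had 9.58 in replicate 3 (rank 11820), and eEFSec, the selenocysteine factor, had 10.2 in replicate 2 (rank 25780). Each was thus in 1 replicate list only and far down its ranking. eEF5, known elsewhere as eIF5A and modified with hypusine, had no candidate in any list.

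No germline paralogue had an IDR summit. Of the 9 genes 0 had one, against 5 of the 43 general factor genes (11.6%) and 8.78% of all genes, and 0 of the 9 had a peak in the top of either replicate. With 9 genes and that background, a count of 0 is not read as a feature of the germline paralogues, and the difference was not tested. Pooled candidates were at 3 of the 9 (33.3%) and at 11 of the 43 (25.6%), both below the 46.4% of all genes. Their median signal in the pool was 19.9 at the germline paralogues, from 17.9 to 22.6, and 29.6 at the general factors, from 19.6 to 448. In replicate 2 the medians kept this order, at 12.8 and 15.5, and in replicate 3 they turned, at 12.5 for the germline paralogues and 11.6 for the general factors.

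In no pair of a germline gene and its general counterpart did either gene have an IDR summit within 1 kb. eIF4E1, the main cap-binding protein, had no candidate in any list within 1 kb. Of its paralogues, eIF4E5 had 22.6 in the pool (rank 5893), in a coding exon of CG32365 665 bp upstream, and 16.2 in replicate 2 (rank 5611). eIF4E4 had 19.9 in the pool (rank 9210) 29 bp upstream, 12.3 in replicate 2 (rank 14970) and 6.50 in replicate 3 (rank 29251). eIF4E6 had 17.9 in the pool (rank 13348) and 13.1 in replicate 2 (rank 12011), 988 and 963 bp downstream of the TSS and past the end of the gene, and 14.8 in replicate 3 (rank 3601) in its intron. All of these lay below the strongest 1205 peaks of their lists. eIF4E3, which spermatogenesis requires, had 12.4 in replicate 2 (rank 14567) and eIF4E7 had 10.2 in replicate 3 (rank 10074).

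The scaffold gene eIF4G1 had a pooled candidate of 19.6 (rank 9787) 7 bp upstream of its TSS and 11.8 in replicate 3 (rank 6606). Its paralogue eIF4G2, needed for male meiosis, had 17.7 in replicate 3 alone (rank 2362), 223 bp upstream of the TSS it shares with CG33111. Among the eIF3 pairs, eIF3f1 was described above, eIF3d1 had 11.7 in replicate 2 (rank 17360), and eIF3g1, eIF3d2, eIF3f2 and eIF3g2 had no candidate in any list within 1 kb.

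**Figure D4:**
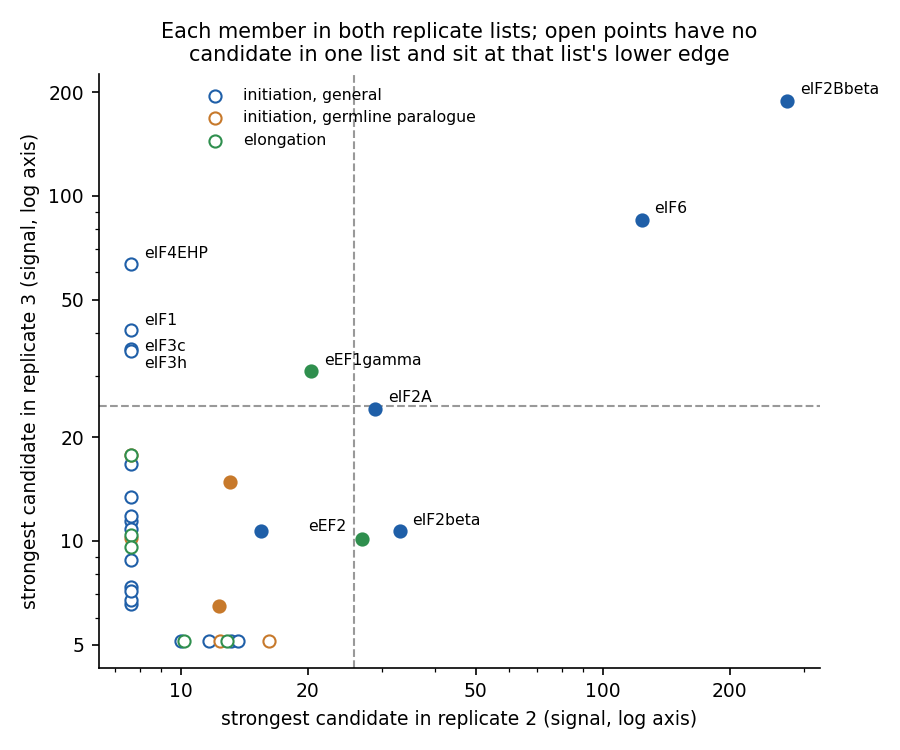
Signal of the strongest candidate within 1 kb of a TSS in replicate 2 and in replicate 3 for every member with at least 1, on log axes; open points lack a candidate in 1 list and are drawn at that list's lower edge. Dashed lines mark the 1205th peak of each list (25.7 and 24.6), and eIF2Bbeta and eIF6 alone lie above both.

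Among the members near a top peak of either replicate, 2 had one in both (3.85% of members, against 5.40% of all genes). Over all genes, 1113 were near a top peak of replicate 2, 1305 near one of replicate 3 and 753 near one of both. With so few members the difference was not tested. In the top of replicate 2 there were 5 members (9.62%, against 7.98% of all genes) and in that of replicate 3 there were 7 (13.5%, against 9.36%). Beside eIF2Bbeta and eIF6, replicate 2 had eIF2A, eEF2 and eIF2beta, and replicate 3 had eIF4EHP, eEF1gamma, eIF1, eIF3c and eIF3h. eIF2beta, a subunit of eIF2, had 33.1 in replicate 2 (rank 713) and 10.7 in replicate 3 (rank 8578) with summits 8 bp apart, and no overlapping pooled candidate. eIF3c had 36.1 (rank 540) and eIF3h 35.5 (rank 558) in replicate 3, with no overlapping candidate in replicate 2 or the pool.

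Some of these single-replicate peaks overlapped no pooled candidate. Of the 1205 strongest peaks, 150 of replicate 3 (12.4%) and 30 of replicate 2 (2.49%) overlapped none. The eIF1, eIF3c and eIF3h peaks are among the former and the eIF2beta peak is among the latter. Depth and library quality behind the lists are not known, and their part in these differences was not tested.

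Over all candidates, the share of members near a pooled candidate was below that of all genes. A pooled candidate lay within 1 kb of a TSS of 14 members (26.9%), against 46.4% of all genes, and a replicate 2 candidate near 17 (32.7%), against 44.7%. For replicate 3 the shares were 28 members (53.8%) and 54.0%. No candidate of any list lay near 16 members (30.8%), against 29.6% of all genes. Most candidates are weak, so these shares describe the low end of the lists.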

How the data were processed

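The data are peak lists of GATAd ChIP-seq in 2 biological replicates of GATAd-GFP larvae. Per the deposited file records, the dm6 candidate lists cover replicate 2, replicate 3 and their pool, and the optimal IDR list derives from these 3. Column 7, the authors' signal per peak, was used as deposited, to rank and describe peaks within a list. No label or record used here names the aligner, the peak caller or the cut-off on the IDR. Read depth is unknown. The dm3 lists were not used, since coordinates were not converted.

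TSSs came from protein-coding transcripts of Ensembl release 115 (BDGP6). The Release 6 sequence held ATG at all 116 annotated start codons of member transcripts, and 0 peaks ran past an arm end. Words were searched within 100 bp of summits. The scripts (Python 3.11.15, pandas 2.3.3, numpy 2.4.6) were tested on simulated data. Genes are not replicates, so classes are described without tests. Named genes were those with an IDR summit, all elongation factors, germline paralogues with their counterparts, the 8 strongest others and those in the top of 1 replicate. Examples of DRE promoters and of shared TSSs were chosen after their values were seen. The members, classes and lists were chosen with earlier results of these data known.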

Additional observations from a re-analysis of the deposited data

How the results depend on the processing

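No paired analysis was possible because there is 1 group and no comparison between groups. Of the 5 members near an IDR summit, 3 were left within 250 bp (2 initiation, 3 general) and with 1 gene per peak (2 initiation, 3 general). With the 602 strongest IDR peaks 3 were left (0 elongation, 3 general), and 9 lay within 5 kb (8 initiation, 9 general). With 1 gene per peak the share was 5.77%, against 5.73% of all genes. The shares of all genes within 250 bp, within 5 kb and with the 602 strongest were not computed. These moves are therefore not read as a trait of the members. Lists without 1 replicate gave 5 to 7 members, 4 to 6 initiation, 1 elongation, 5 to 7 general and 0 germline genes, sharing 4 (without replicate 2) and 3 (without replicate 3) of the 5 genes. Median signal moved to 20.7 (250 bp), 20.8 (5 kb) and 20.5 (1 gene per peak) for initiation, 38.6 (250 bp and 1 gene per peak) for elongation, and 33.5 (5 kb) and 25.6 (1 gene per peak) for general factors. In the replicate lists, whose scale may differ, it was 11.8 to 13.7 for initiation, 10.4 to 16.6 for elongation, 11.6 to 15.5 for general factors and 12.5 to 12.8 for germline paralogues, and in replicate 3 both orders between classes turned. Within 50 bp of the summit, WGATAR was at 0 of the 5 peaks and DRE at 2. The share of initiation minus elongation genes, -3.41 percentage points, was -7.95 within 250 bp and with 1 gene per peak, and turned to 5.68 within 5 kb, 6.82 with the 602 strongest and 1.14 without replicate 2 (-3.41 without replicate 3). For this difference and the next, these settings were added after seeing the data; the cause was not tested. General minus germline, 11.6, was 6.98 within 250 bp, with 1 gene per peak and with the 602 strongest, 20.9 within 5 kb, and 11.6 to 16.3 without 1 replicate. The germline count was 0 under all 8 alternatives run.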

Other observations

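Of 32 further genes of translation and its control, listed from general knowledge and also chosen with earlier results known, 4 lay within 1 kb of an IDR summit (12.5%, against 8.78% of all genes) and 13 of a pooled candidate (40.6%, against 46.4%). The 4 were Thor, the eIF4E-binding repressor (pooled signal 56.2, with 41.7 in replicate 2 and 26.6 in replicate 3), Lk6, the kinase of eIF4E (308, 171 and 140), MCTS1, a reinitiation factor (73.0, 38.8 and 33.0), and pix, the ribosome recycling factor ABCE1 (72.9, 38.7 and 41.0). Their summits lay 194 bp (Thor), 969 bp (Lk6), 484 bp (MCTS1) and 43 bp (pix) from the TSS. Whether another gene lay nearer was not examined for them. The same 4 of the 32 genes were near a top 1205 peak of both replicates (12.5%, against 5.40% of all genes). They were named for their IDR summits, and the IDR list derives from both replicates, so this is not a separate result. The release factor gene eRF1 had 45.1 in replicate 3 and no candidate in replicate 2 within 1 kb, as did eIF1, eIF3c and eIF3h.

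Long member genes differed in how many candidates they held. Of all members, long or short, only eIF2A had an IDR summit inside the gene, so the lack of one does not set the 5 longest apart. The share of all genes with a summit inside the gene was not computed. The 45884 bp of eIF4EHP held 20 pooled summits of at most 27.9, the 32320 bp of eIF5B held 13 of at most 31.0, the 15603 bp of eIF4B held 0, the 15419 bp of eIF4G1 held 6 of at most 20.4, and the 10953 bp of eIF4G2 held 4 of at most 20.5. Between 1 and 5 kb from a TSS, IDR summits lay 2499 bp from eIF2beta (136), 1330 bp from eIF3g1 (73.4), 1239 bp from eIF3d1 (46.2) and 4472 bp from eIF4E1 (46.3).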
